A study of Mus musculus with 9 samples.

Results

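The genes described here are the mouse translation initiation factors (eIF) and eukaryotic elongation factors (eEF), with the kinases, inhibitors and methyltransferases that carry the same names. Members were the rows of the count table whose Ensembl identifier maps in GENCODE M21 to a protein-coding symbol that begins with Eif or Eef followed by a digit, leaving out Eif2s3y, and 67 of the 21253 gene rows met this rule. Of these, 64 passed the filter on low counts and were tested, and Eif4e1b, Eef1a2 and Eif4ebp3 did not pass it. RNA was sequenced from 9 samples of AKP organoids, cultures of mouse intestinal tumour cells (the labels do not spell out AKP). The sample titles carry shAPC, a hairpin against Apc, and the control group of 3 samples was kept in doxycycline and is labelled as having Apc off. In the other groups, with 3 samples each, doxycycline was taken away for 2 days or for 7 days, which the labels call Apc restoration. All 9 samples carry the same genotype and come from 1 organoid model. Replicates are described as technical in the labels, and p-values therefore cover only the spread between these samples. Removal of the drug, return of Apc and days in culture cannot be told apart in this design, and in bulk RNA fewer cells of a type cannot be told apart from less RNA per cell.

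Translation of most mRNAs begins when eIF4F, made of the cap-binding protein eIF4E, the scaffold eIF4G and the RNA helicase eIF4A, loads the small ribosomal subunit carrying eIF3, eIF1, eIF1A, eIF5 and the initiator tRNA bound to eIF2. eIF2 must be recharged with GTP by eIF2B, a step blocked by kinases that phosphorylate its alpha subunit, while the 4E-binding proteins compete with eIF4G for eIF4E. During elongation eEF1A delivers aminoacyl-tRNAs and is recharged by the eEF1B complex, and eEF2 moves the ribosome along the mRNA. In the intestine this machinery is known as a target of Myc, itself a Wnt target, and of mTORC1, which phosphorylates the 4E-binding proteins and controls the eEF2 kinase.

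Libraries held 24143589 to 32277040 counts, and levels below are CPM (counts per 1000000 counts of a library) after TMM scaling, which is a way to set libraries on 1 scale. All are levels of mRNA, also where a factor is named by its protein, and protein was not measured. The TMM factors were 1.07 to 1.12 for control samples, 1.09 to 1.12 for 2 days and 0.785 to 0.874 for 7 days. Apc, which checks the labels, had 6.8 to 8.84 CPM with doxycycline, 24.8 to 38.1 CPM after 2 days and 67.9 to 92.9 CPM after 7 days without it. The 7 epithelial markers were detected in every sample, and their summed level was 9383 to 12403 CPM, 13891 to 15946 CPM and 26066 to 35606 CPM in the 3 groups. The 8 fibroblast markers summed to 16.9 to 19.9 CPM, 4.97 to 6.77 CPM and 1.601 to 2.05 CPM. In control and 2-day samples most of this was Vim, and Col3a1, Dcn and Lum were at or near 0. Of these markers 3 passed the filter on low counts. At 7 days against control 2 were lower (log2 fold change down to -4.17) and 1 was higher (5.04), at an edgeR adjusted p under 0.05. The 8 immune cell markers summed to 1.26 to 1.62 CPM, 1.59 to 1.99 CPM and 3.92 to 5.84 CPM, mostly Cd68 and Csf1r, with Ptprc and Cd3e at or near 0, and the 5 endothelial markers stayed at or under 2.27 CPM. The part of these shifts in the results below was not tested.

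After 7 days without doxycycline most translation factor mRNAs were lower than in controls. After 2 days few were called in the fit by group alone, and more with the replicate number as a block (below). The 67 genes together took 4.299 to 4.46% of all counts in control samples. After 2 days without doxycycline the share was 4.02 to 4.11%, and after 7 days 2.57 to 2.59%. The groups did not overlap. On the TMM scale their summed level was 38232 to 41536 CPM, 36069.5 to 37663 CPM and 29383 to 33026 CPM. Ribosomal protein genes, the other large group of translation mRNAs, took 7.26 to 7.401%, 6.36 to 7.49% and 4.505 to 4.74% of counts.

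**Figure D1:**
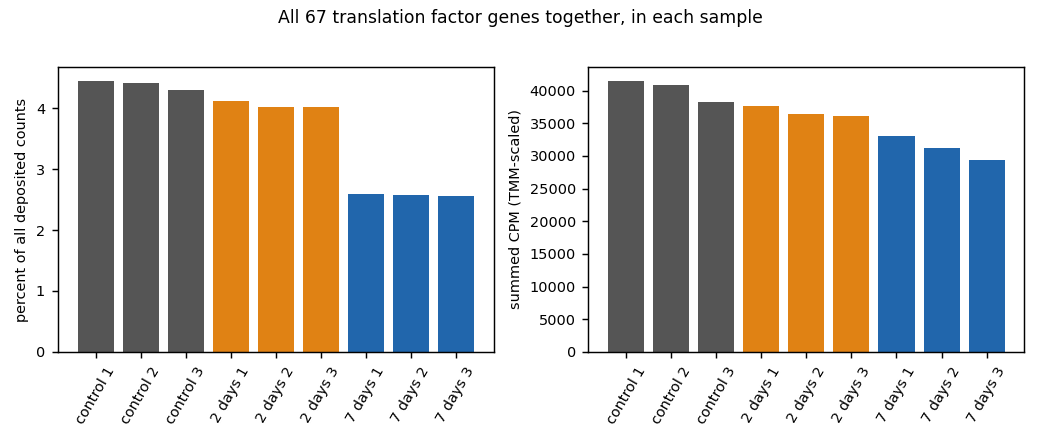
Percent of all counts (left) and summed level in TMM-scaled CPM (right) of the 67 translation factor genes together, with 1 bar for each sample, coloured by group, on axes that start at 0. The 7-day samples lie from 2.57 to 2.59% and from 29383 to 33026 CPM, below all 2-day and control samples in both panels.

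At 7 days against control, 48 of the 64 tested factors were lower (75%, where 41.8% of all 12535 genes tested were lower) and 6 were higher (9.38%, against 40.5% of all genes), at an edgeR adjusted p under 0.05. The median log2 fold change was -0.60 for the factors and -0.03 for all genes. Of the 64 factors, 18 were called and lower by more than 2-fold while 1 was higher by as much. Of all 12535 genes, 2451 were called and lower by more than 2-fold and 2794 were higher by as much. The 6 that rose were the eIF2 alpha kinases Eif2ak1, Eif2ak2 and Eif2ak3, the helicase Eif4a2, the eEF2 kinase Eef2k and the eIF3 subunit Eif3h. The largest falls were in Eef1e1, Eef1akmt4, Eif2b3, Eif2b4 and Eif3j1.

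Scaling by library size alone, with no TMM factors, lowered every 7-day value by about the same amount. It moved the median of all genes from -0.03 to -0.43 and that of the factors to -1.01, and the median of the factors minus that of all genes was -0.57 on either scale. Of all genes called at 7 days against control, 49.2% were higher with TMM and 34.8% with library size alone. Under that scaling Eif2ak2, Eif2ak3 and Eif4a2 kept their rise, Eif2ak1 and Eef2k were no longer called (log2 fold change 0.048 and 0.12, edgeR adjusted p = 0.52 and 0.24), and Eif3h turned to -0.18. Of the 48 that were lower, 43 were called lower under every alternative tried.

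**Figure D2:**
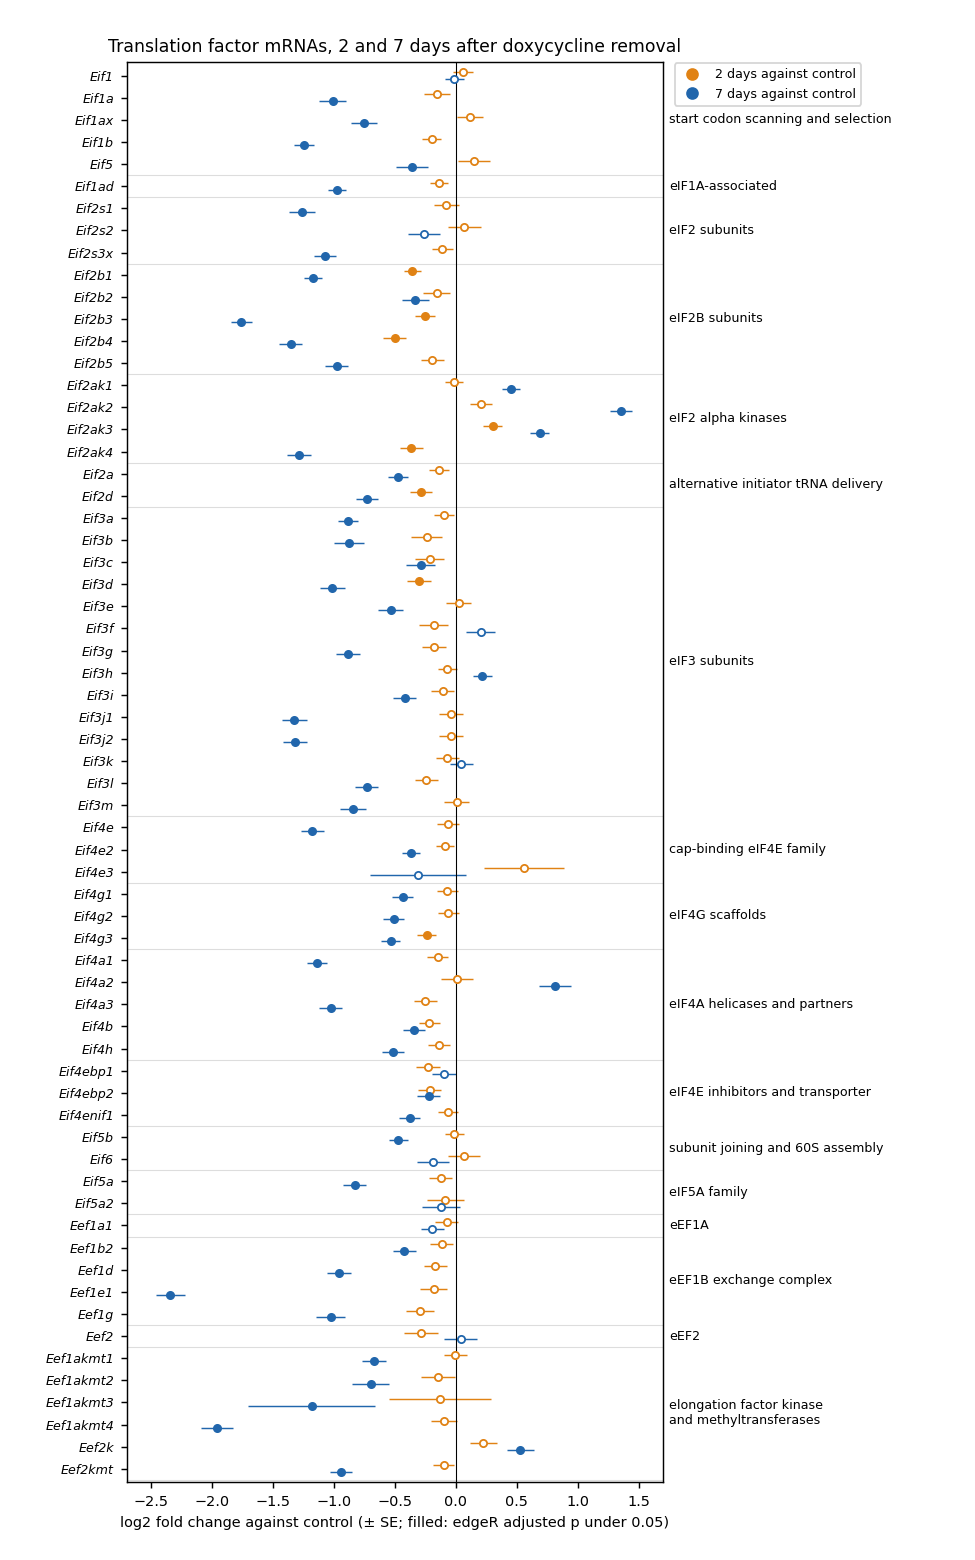
Log2 fold change (± SE) of the 64 tested translation factors at 2 days (orange) and 7 days (blue) against control, grouped by role, with filled symbols for an edgeR adjusted p under 0.05. Most blue symbols lie left of 0 and the 6 filled blue symbols right of 0 are Eif2ak1, Eif2ak2, Eif2ak3, Eif3h, Eif4a2 and Eef2k, of which Eif3h turns and Eif2ak1 and Eef2k lose their call when scaled by library size alone.

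At 2 days against control, 7 of 64 factors were lower (10.9%, against 10.6% of all genes) and 1 was higher (1.56%, against 13.1% of all genes). The lower ones were the eIF2B subunits Eif2b1, Eif2b3 and Eif2b4, the kinase Eif2ak4, the eIF3 subunit Eif3d, the initiator tRNA carrier Eif2d and the scaffold Eif4g3, and the higher one was the kinase Eif2ak3. None of the 8 changed by 2-fold, and the median of the factors was -0.11 against -0.004 for all genes. Of the 7, Eif2b1, Eif2b4 and Eif2ak4 were called under every alternative. The other calls did not hold under all of them, while some alternatives called more factors. With the replicate number as a block, 20 were lower (31.2%, against 15.7% of all genes) and 2 higher (3.12%, against 16.6%). With 1 sample left out, 3 factors were lower without control replicate 1, control replicate 2, 2-day replicate 1, 2-day replicate 3 or 7-day replicate 2, 4 without 2-day replicate 2, 10 without 7-day replicate 1 or 3, and 11 without control replicate 3. Eif2d, Eif2b3 and Eif3d were lost in each case that left 3 or 4 (edgeR adjusted p up to 0.15, 0.13 and 0.14), Eif4g3 in most of them and also without control replicate 3 (up to 0.19), and Eif2ak3 without control replicate 2 (0.071). With no filter on low counts Eif2b3 and Eif4g3 were not called, and Eif4g3 was not called with library size alone or in a fit of only those 2 groups either.

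At 7 days against 2 days, 45 of 64 factors were lower (70.3%, against 39.9% of all genes) and 8 were higher (12.5%, against 39.2%), with a median of -0.53 against -0.03. This comparison shares its 7-day samples with the one against control, and the 2 comparisons against control share the controls. The higher factors were Eif2ak1, Eif2ak2, Eif2ak3, Eif4a2, Eef2k, Eif3h, Eif3f and Eef2, of which Eif2ak2 and Eif4a2 were called under every alternative. With library size alone Eif2ak3, Eef2k, Eif3h, Eif3f and Eef2 turned to a log2 fold change between -0.13 and -0.032, and the share of higher genes among all calls went from 49.5% to 31.8%.

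Among the mRNAs of eIF4F subunits, those of the cap-binding protein, the main helicase and the scaffolds all fell at 7 days. Eif4e lies on chromosome 3, 138526179 to 138559696, plus strand (GRCm38, as for all positions below). Eif4e, which binds the mRNA cap, stood at 182, 192 and 219 CPM in control samples, 185, 175 and 209 after 2 days and 81.8, 87.9 and 92.8 after 7 days. All 7-day samples lay below every other sample while the 2-day and control samples overlapped. The level fell 2.26-fold at 7 days (log2 fold change -1.18 ± 0.09, edgeR adjusted p = 1.2e-08). Eif4a1 lies on chromosome 11, 69666936 to 69672423, minus strand. Eif4a1, the main helicase that unwinds the 5′ end of the mRNA, stood at 1790.0, 1858 and 1902 CPM with doxycycline, 1639, 1575 and 1793 after 2 days without it and 837, 868 and 817 after 7 days. Its 7-day samples were again below all others, with a 2.201-fold fall (log2 fold change -1.14 ± 0.09, edgeR adjusted p = 6.1e-09). Of its counts some are uncertain, since 28.4% of its 50-base words also occur in transcripts of other genes, mostly a pseudogene. Eif4g1 lies on chromosome 16, 20668313 to 20692884, plus strand. Eif4g1, the scaffold that ties eIF4E to eIF4A and eIF3, stood at 1409, 1360.0 and 1286 CPM in control samples, 1308, 1386 and 1169.9 after 2 days and 1027, 999.6 and 969.9 after 7 days. It fell less (log2 fold change -0.44 ± 0.09, edgeR adjusted p = 0.00029), without overlap between 7 days and the other groups.

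The RefSeq promoters (GRCm38.p6, 250 bases before to 50 after the start) of all 3 of these genes hold the E-box CACGTG, the sequence read by Myc and other basic helix-loop-helix factors, and are shown because these subunits act as 1 complex. The E-box is in capitals and each line runs 5′ to 3′ on the strand of the gene.
Eif4e, chr3:138527028-138527057, plus strand: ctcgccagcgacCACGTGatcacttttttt
Eif4e, chr3:138527192-138527221, plus strand: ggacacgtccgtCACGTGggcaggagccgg
Eif4g1, chr16:20672661-20672690, plus strand: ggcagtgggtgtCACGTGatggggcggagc
Eif4g1, chr16:20672730-20672759, plus strand: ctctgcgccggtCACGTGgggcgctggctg
Eif4a1, chr11:69672595-69672624, minus strand: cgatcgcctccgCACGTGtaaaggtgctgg

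Promoters were in the RefSeq table for 51 of the 67 genes, as 66 windows, and 15 windows (22.7%) of 13 genes held CACGTG, which reads the same on both strands, against 7.15% of all 32851 windows. Beside the 3 genes above these were Eef1akmt4, Eef2, Eef2k, Eif1b, Eif3a, Eif3f, Eif3k, Eif4h, Eif5a and Eif5a2. At 7 days against control Eif4e, Eif4g1, Eif4a1, Eef1akmt4, Eif1b, Eif3a, Eif4h and Eif5a were lower. Eef2k was higher (not called with library size alone), and Eef2, Eif3f, Eif3k and Eif5a2 had no call. Of all 64 tested factors 75% were lower. All windows include those of genes not expressed here, and overlapping windows can hold the same site, as for Eif5a. Whether the higher share of CACGTG is particular to translation factors was not tested. The amino acid response element core TGATGCAA, searched on both strands, was in 0 of 66 windows and in 0.895% of all windows. A start base C followed by at least 4 pyrimidines is the form of terminal oligopyrimidine mRNAs, whose translation mTORC1 controls. It was at the RefSeq start of 2 windows (3.03%, against 2.51% of all), those of Eif3f and Eif2s3x. Only the annotated start base was searched, with no measured start sites, so genes whose mRNAs start at another base may have been missed. The 2 windows are shown with the run of pyrimidines in capitals.
Eif3f, chr7:108934405-108934434, plus strand: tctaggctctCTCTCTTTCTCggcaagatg
Eif2s3x, chrX:94212632-94212661, minus strand: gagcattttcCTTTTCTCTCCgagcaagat

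Eif4a2 went the other way from its close relative Eif4a1. Eif4a2 lies on chromosome 16, 23107444 to 23114136, plus strand. Eif4a2, which encodes a close paralog of that helicase, stood at 82.96, 91.3 and 115 CPM with doxycycline, 92.7, 84.9 and 113 after 2 days without it and 147, 177 and 185 after 7 days. Every 7-day sample was above every other sample. The level rose 1.76-fold (log2 fold change 0.81 ± 0.13, edgeR adjusted p = 3.2e-05), after 0.008 ± 0.13 at 2 days (edgeR adjusted p = 0.97). Levels per kilobase of exon, here and below, use all annotated exons of a gene, not only those of the mRNA form present. Ratios and ranks of such levels are therefore approximate. Per kilobase of exon, Eif4a2 made up 4.05 ± 0.561% of the summed level of both helicases in controls (SD, n = 3), 4.49 ± 0.355% at 2 days and 14.1 ± 1.5% at 7 days. Its exons overlap those of Rfc4 on the other strand over 194 bases, and the strand setting of the counting is not given in the sources used here, so it is uncertain to which gene reads there were counted.

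The mRNAs of the other scaffolds and of the partners of eIF4A were lower at 7 days as well. Eif4g2, which encodes a scaffold that lacks the eIF4E site, stood at 1445, 1496 and 1648 CPM in control samples, 1458, 1535 and 1403 after 2 days and 1022, 1056 and 1144 after 7 days. It fell at 7 days without overlap (log2 fold change -0.51 ± 0.09, edgeR adjusted p = 7.1e-05). Eif4g3, a second full-length scaffold, stood at 64.7, 64.7 and 67.6 CPM with doxycycline, 51.3, 61.6 and 54.1 after 2 days without it and 45.4, 45.3 and 45.3 after 7 days. It was already lower at 2 days in every sample (log2 fold change -0.24 ± 0.08, edgeR adjusted p = 0.039, a call lost under several alternatives, above) and lower again at 7 days (log2 fold change -0.54 ± 0.08, edgeR adjusted p = 1.6e-05). Eif4b, an RNA-binding partner that stimulates eIF4A, stood at 938, 910.0 and 820.2 CPM in control samples, 805, 786 and 703 after 2 days and 736, 695 and 672 after 7 days. All its 7-day samples lay under the controls (log2 fold change -0.34 ± 0.09, edgeR adjusted p = 0.0021). Eif4h, a related partner, and Eif4a3, the helicase of the exon junction complex, fell too, with log2 fold changes at 7 days of -0.51 ± 0.09 and -1.03 ± 0.10 (edgeR adjusted p = 8.5e-05 and 8.5e-08).

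The mRNAs of the 4E-binding proteins, which hold eIF4E away from eIF4G, changed little with TMM beside the fall of Eif4e. Eif4ebp1 lies on chromosome 8, 27260329 to 27276674, plus strand. Eif4ebp1 stood at 106, 99.9 and 92.8 CPM with doxycycline, 89.05, 79.1 and 87.8 after 2 days without it and 107, 93.3 and 79.8 after 7 days. The 7-day and control samples overlapped, and no change was called with TMM (log2 fold change -0.10 ± 0.10, edgeR adjusted p = 0.38), while with library size alone it was lower (-0.50, edgeR adjusted p = 6.9e-05). Eif4ebp2 stood at 362, 356 and 312 CPM in control samples, 292, 328 and 269 after 2 days and 317, 297 and 270.2 after 7 days. Of the 7-day samples 1 lay inside the range of the controls. It was called lower at 7 days (log2 fold change -0.22 ± 0.10, edgeR adjusted p = 0.043), a call that did not hold without control sample 1 or 2, 2-day sample 1 or 7-day sample 2 or 3 (edgeR adjusted p up to 0.15), with DESeq2 or its size factors, or with a filter at a mean of 5 CPM. Eif4ebp3 was near 0, with 2, 0 and 3 counts in the controls, 0, 0 and 3 at 2 days and 4, 2 and 1 at 7 days. Per kilobase of exon, the summed level of Eif4ebp1 and Eif4ebp2 was 3.21 ± 0.531 times that of Eif4e in controls (SD, n = 3), 2.87 ± 0.358 times at 2 days and 6.46 ± 1.11 times at 7 days.

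Of the other cap-binding genes, Eif4e2, which encodes a cap-binding protein that represses translation, was lower by a log2 fold change of -0.37 ± 0.07 at 7 days (edgeR adjusted p = 0.00024). Eif4e3 was nearly silent, at 0.232, 0.287 and 0.249 CPM with doxycycline, 0.337, 0.4499 and 0.368 after 2 days without it and 0.303, 0.188 and 0.147 after 7 days. Each 2-day sample lay above the rest. It was not called against control at 2 days (log2 fold change 0.56 ± 0.33, edgeR adjusted p = 0.29) or at 7 days (log2 fold change -0.31 ± 0.39, edgeR adjusted p = 0.53). Eif4e1b, a germ cell form, had 0 counts in all 9 samples, where 3 counts over all libraries would be 0.0115 CPM. Eif4enif1, which carries eIF4E into the nucleus, was lower at 7 days (log2 fold change -0.38 ± 0.09, edgeR adjusted p = 0.0008).

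**Figure D3:**
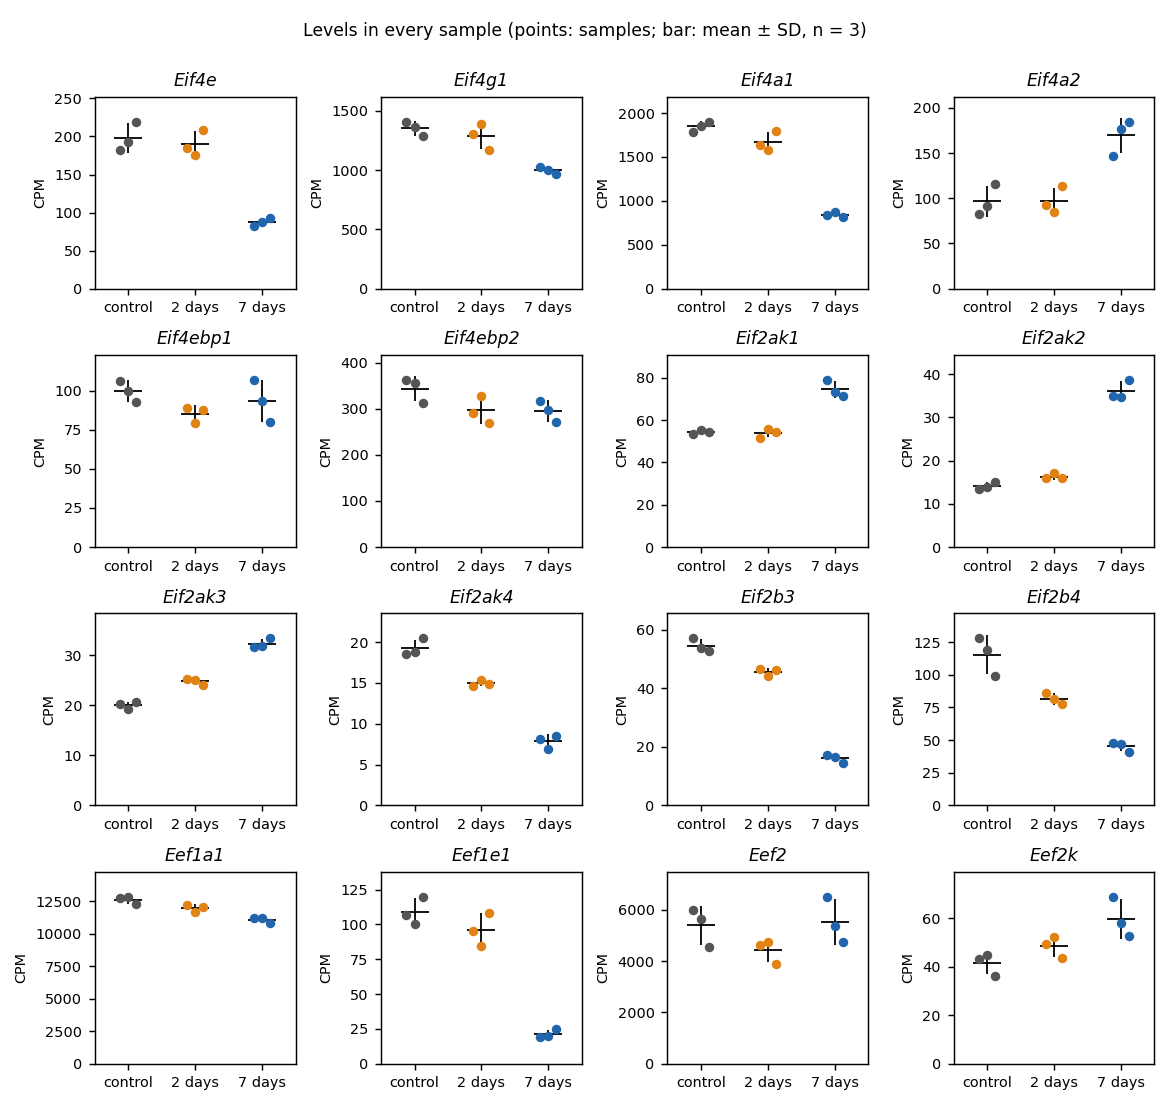
Level in CPM (linear axes from 0) of 16 translation factors in every sample, with points for samples and a bar for the mean ± SD of 3 samples per group. Eif4e, Eif4a1, Eif2b3 and Eef1e1 are lowest at 7 days, Eif4a2, Eif2ak1, Eif2ak2 and Eif2ak3 are highest at 7 days, and Eif4ebp1 and Eef2 overlap between 7 days and control.

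The mRNAs of the 4 kinases that phosphorylate eIF2 alpha moved in opposite directions at 7 days: 3 rose and 1 fell. Of all genes tested, 40.5% were higher and 41.8% lower. Eif2ak2 lies on chromosome 17, 78852564 to 78882573, minus strand. Eif2ak2, which encodes PKR, the sensor of double-stranded RNA, stood at 13.5, 13.8 and 15.1 CPM in control samples, 15.9, 17.1 and 15.9 after 2 days and 35.1, 34.8 and 38.6 after 7 days. All 7-day samples were above 2 times every control sample, the largest rise of any factor (log2 fold change 1.36 ± 0.09, edgeR adjusted p = 9.8e-10). At 2 days all samples were already above the controls without a call (log2 fold change 0.21 ± 0.09, edgeR adjusted p = 0.11). Eif2ak3 lies on chromosome 6, 70844515 to 70905245, plus strand. Eif2ak3, which encodes PERK, the sensor of unfolded proteins in the endoplasmic reticulum, stood at 20.2, 19.3 and 20.7 CPM with doxycycline, 25.2, 25.1 and 24.03 after 2 days without it and 31.8, 31.8 and 33.4 after 7 days. The 3 groups did not overlap. The level was higher at 2 days (log2 fold change 0.30 ± 0.08, edgeR adjusted p = 0.01) and higher still at 7 days (log2 fold change 0.69 ± 0.08, edgeR adjusted p = 7.7e-07). Eif2ak1, which encodes the heme-regulated kinase HRI, stood at 53.5, 55.6 and 54.5 CPM in control samples, 51.6, 55.8 and 54.6 after 2 days and 79.02, 73.3 and 71.5 after 7 days. The 2-day and control samples overlapped, and the 7-day samples were above both (log2 fold change 0.45 ± 0.07, edgeR adjusted p = 3.5e-05, not called with library size alone).

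Eif2ak4 lies on chromosome 2, 118388618 to 118475234, plus strand. Eif2ak4, which encodes GCN2, the sensor of uncharged tRNA, fell in steps. It stood at 18.5, 18.8 and 20.5 CPM with doxycycline, 14.7, 15.3 and 14.9 after 2 days without it and 8.18, 6.95 and 8.504 after 7 days. No sample of one group reached the range of another. The log2 fold change was -0.36 ± 0.09 at 2 days (edgeR adjusted p = 0.01) and -1.29 ± 0.10 at 7 days (edgeR adjusted p = 8.6e-09).

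The mRNAs for subunits of eIF2 and of its exchange factor eIF2B were mostly lower at 7 days. Eif2s1, the alpha subunit that the kinases phosphorylate, stood at 218, 231 and 281 CPM in control samples, 219.5, 213 and 258 after 2 days and 94.4, 99.7 and 109 after 7 days. Its 7-day samples lay below every other sample (log2 fold change -1.26 ± 0.11, edgeR adjusted p = 2.4e-08). Eif2s3x, the gamma subunit that binds the tRNA, fell by a similar amount (log2 fold change -1.08 ± 0.09, edgeR adjusted p = 2e-08), with 34.6% of its 50-base words shared with another gene. Eif2s2, the beta subunit, overlapped between groups and was not called at 7 days (log2 fold change -0.26 ± 0.13, edgeR adjusted p = 0.082), but several alternatives called it lower, among them library size alone, no filter, and leaving out control replicate 1, 2-day replicate 3 or 7-day replicate 3 (edgeR adjusted p down to 0.028 with a sample left out).

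Each of the 5 eIF2B subunits was lower at 7 days, with a median log2 fold change of -1.17, where 41.8% of all genes were lower. Eif2b3 lies on chromosome 4, 117019402 to 117087306, plus strand. Eif2b3, a gamma subunit in the catalytic part, stood at 57.00, 53.8 and 52.5 CPM with doxycycline, 46.6, 44.2 and 46.1 after 2 days without it and 17.1, 16.7 and 14.4 after 7 days. The groups did not overlap, with -0.25 ± 0.08 at 2 days (edgeR adjusted p = 0.032) and a 3.39-fold fall at 7 days (log2 fold change -1.76 ± 0.09, edgeR adjusted p = 3.9e-11). Eif2b4, the delta subunit, showed the largest fall of any factor at 2 days: it stood at 128, 119 and 99.3 CPM in control samples, 86.3, 81.3 and 77.3 after 2 days and 47.6, 46.7 and 41.1 after 7 days. Its groups were separate as well (log2 fold change -0.50 ± 0.10, edgeR adjusted p = 0.0013 at 2 days and log2 fold change -1.36 ± 0.10, edgeR adjusted p = 3.9e-09 at 7 days). Eif2b1, the alpha subunit that senses phosphorylated eIF2, stood at 151, 154 and 142 CPM with doxycycline, 116, 115 and 118 after 2 days without it and 68.8, 65.7 and 63.4 after 7 days. It too was lower in every 2-day sample (log2 fold change -0.36 ± 0.07, edgeR adjusted p = 0.0015) and lower again at 7 days (log2 fold change -1.17 ± 0.07, edgeR adjusted p = 4.9e-10). Eif2b5, the catalytic epsilon subunit, was called at 7 days (log2 fold change -0.98 ± 0.10, edgeR adjusted p = 1.4e-07) and not at 2 days (edgeR adjusted p = 0.16). Eif2b2, the beta subunit, fell least (log2 fold change -0.33 ± 0.11, edgeR adjusted p = 0.012), and without control replicate 1 or 7-day replicate 3 it was not called (log2 fold change up to -0.22, edgeR adjusted p up to 0.06).

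Also lower were the mRNAs of proteins that bring the initiator tRNA without eIF2. Eif2d stood at 87.5, 81.9 and 73.9 CPM in control samples, 68.7, 66.4 and 64.6 after 2 days and 53.2, 50.8 and 42.6 after 7 days. No groups overlapped. Its log2 fold change was -0.28 ± 0.09 at 2 days (edgeR adjusted p = 0.033) and -0.73 ± 0.09 at 7 days (edgeR adjusted p = 2.6e-06). Eif2a was called lower at 7 days (log2 fold change -0.47 ± 0.08, edgeR adjusted p = 6.4e-05) and not at 2 days (edgeR adjusted p = 0.24). The difference between these genes was not tested.

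The factors that scan for the start codon did not move together. Eif1, which guards start codon choice, stood at 423, 432 and 415 CPM with doxycycline, 453, 411 and 459 after 2 days without it and 422, 448 and 390.2 after 7 days. Its samples overlapped in all groups. No change was called at 7 days with TMM (log2 fold change -0.01 ± 0.08, edgeR adjusted p = 0.9), while with library size alone it was lower (-0.41, edgeR adjusted p = 9.6e-05). Its paralog Eif1b fell, without overlap at 7 days (log2 fold change -1.24 ± 0.08, edgeR adjusted p = 1.7e-09), and so did Eif1a and Eif1ax, which encode the 2 forms of eIF1A (log2 fold change -1.01 ± 0.11 and -0.76 ± 0.11, edgeR adjusted p = 5.2e-07 and 1.2e-05). Eif1ad, whose product resembles eIF1A and acts in ribosome assembly, fell by 0.97 ± 0.08 on the log2 scale (edgeR adjusted p = 1e-08). Eif5, which triggers GTP hydrolysis on eIF2, was called lower at 7 days (log2 fold change -0.36 ± 0.13, edgeR adjusted p = 0.018) but not without control sample 3 or 7-day sample 1 or 2 (log2 fold change up to -0.23, edgeR adjusted p up to 0.098).

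There were 14 rows for eIF3, the complex that bridges the small subunit and eIF4G. At 7 days 11 were lower (78.6%, against 41.8% of all genes), Eif3h was higher, and Eif3f and Eif3k had no call. Eif3a, the largest core subunit, stood at 455, 473 and 461 CPM in control samples, 455, 456 and 385 after 2 days and 252, 242 and 260.0 after 7 days. Every 7-day sample was under all others (log2 fold change -0.88 ± 0.08, edgeR adjusted p = 9.6e-08). Eif3d, a subunit that can bind caps itself, stood at 243, 234 and 199 CPM with doxycycline, 184, 188 and 175 after 2 days without it and 128, 108 and 99.6 after 7 days. It was lower in all 2-day samples (log2 fold change -0.30 ± 0.10, edgeR adjusted p = 0.035, lost without several single samples) and in all 7-day samples (log2 fold change -1.01 ± 0.10, edgeR adjusted p = 1.6e-07), and 37.2% of its 50-base words occur in another gene. Eif3b, Eif3g, Eif3l and Eif3m had log2 fold changes between -0.88 ± 0.13 and -0.73 ± 0.10 at 7 days, and Eif3e and Eif3i fell less, with -0.53 ± 0.10 and -0.42 ± 0.09. Eif3c was the weakest of the calls (log2 fold change -0.29 ± 0.12, edgeR adjusted p = 0.034) and was not called with DESeq2 or its size factors, or without control sample 1 or 2 or 7-day sample 2 or 3 (log2 fold change up to -0.18, edgeR adjusted p up to 0.15).

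Eif3j1 lies on chromosome 2, 122028546 to 122056598, plus strand. Eif3j1, which encodes the loosely bound j subunit, stood at 138, 147 and 169 CPM in control samples, 147, 138 and 156 after 2 days and 52.1, 61.2 and 67.3 after 7 days. Its 7-day samples were under 0.5 of every control sample (log2 fold change -1.33 ± 0.10, edgeR adjusted p = 8.3e-09). Eif3j2, a near-identical copy, followed it at 132, 137 and 158 CPM with doxycycline, 138, 129.5 and 147 after 2 days without it and 49.5, 56.97 and 64.2 after 7 days. There was again no overlap at 7 days (log2 fold change -1.32 ± 0.10, edgeR adjusted p = 8.3e-09). Since 91.8% of the 50-base words of Eif3j2 occur in other genes, mostly Eif3j1, and 50.9% of those of Eif3j1 are shared, these rows are not independent measurements.

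Eif3f, Eif3h and Eif3k were the eIF3 genes not called lower with TMM, and the first pair encodes the subunits with an MPN fold. Eif3f lies on chromosome 7, 108934417 to 108942951, plus strand. Eif3f stood at 435, 411 and 342 CPM in control samples, 377, 347 and 322 after 2 days and 534, 457 and 376 after 7 days. The 7-day range overlapped those of the other groups. Against 2 days it was called higher (log2 fold change 0.39 ± 0.12, edgeR adjusted p = 0.0088, turning to -0.038 with library size alone), and against control it was not (log2 fold change 0.20 ± 0.12, edgeR adjusted p = 0.13). Leaving out 7-day replicate 3 was among the alternatives that called it higher against control (edgeR adjusted p = 0.012), and with library size alone the value turned to -0.20. Eif3h lies on chromosome 15, 51786558 to 51865523, minus strand. Eif3h was at 489 ± 25.4 CPM in controls and 569 ± 35.9 CPM at 7 days (SD, n = 3), with no overlap. It rose with TMM (log2 fold change 0.22 ± 0.08, edgeR adjusted p = 0.02). The call was lost without the control samples numbered 2 or 3 or 7-day sample 1 (edgeR adjusted p up to 0.088) and the value turned with library size alone. Eif3k had no call with TMM (log2 fold change 0.04 ± 0.10, edgeR adjusted p = 0.67) and was lower with library size alone (-0.36, edgeR adjusted p = 0.00094).

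For the late steps, Eif5b, the GTPase that joins the large subunit, was lower at 7 days (log2 fold change -0.47 ± 0.08, edgeR adjusted p = 5.1e-05). Eif6, which keeps free large subunits apart from small ones, stood at 657, 569 and 467 CPM with doxycycline, 672, 544 and 556 after 2 days without it and 564, 508 and 415 after 7 days. All groups overlapped. No change was called (log2 fold change -0.19 ± 0.13, edgeR adjusted p = 0.2). Among the alternatives that called it lower were library size alone and leaving out control replicate 3 (edgeR adjusted p = 0.036 for the latter). Eif5a, the factor that carries hypusine and relieves stalled ribosomes, stood at 2309, 2197 and 2021 CPM in control samples, 2007, 1929.7 and 2053 after 2 days and 1358, 1213 and 1101 after 7 days. Each 7-day sample was below each of the others (log2 fold change -0.83 ± 0.10, edgeR adjusted p = 1.1e-06). Eif5a2, its scarce paralog, stood at 6.37, 8.04 and 8.66 CPM with doxycycline, 7.26, 8.24 and 6.35 after 2 days without it and 5.799, 6.87 and 8.54 after 7 days. The groups overlapped and no change was called with TMM (log2 fold change -0.12 ± 0.16, edgeR adjusted p = 0.49), while library size alone called it lower (-0.52, edgeR adjusted p = 0.018).

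In elongation, no change was called at 7 days for the 2 most abundant factors in the edgeR fit over all samples with TMM, while the exchange factors of eEF1A fell. Eef1a1 lies on chromosome 9, 78478449 to 78489151, minus strand. Eef1a1, which delivers aminoacyl-tRNA, stood at 12783, 12855 and 12292 CPM in control samples, 12236, 11708 and 12094 after 2 days and 11185, 11190.4 and 10809 after 7 days. The groups did not overlap, but the difference at 7 days was small and not called (log2 fold change -0.19 ± 0.10, edgeR adjusted p = 0.073). Several alternatives called it lower, among them the DESeq2 Wald test, limma-voom, library size alone and a fit of only those 2 groups. Some of the counts of Eef1a1 are uncertain, since 40.4% of its sequence words, counted as for Eif4a1, also occur in transcripts of other genes. Eef2 lies on chromosome 10, 81176631 to 81182498, plus strand. Eef2, the translocase, stood at 5998, 5662 and 4534 CPM with doxycycline, 4617, 4767 and 3895 after 2 days without it and 6511, 5391 and 4734 after 7 days. Its 7-day and control samples overlapped (log2 fold change 0.04 ± 0.14, edgeR adjusted p = 0.8), and with library size alone the value was -0.37 (edgeR adjusted p = 0.0084). Eef1a2, the muscle and nerve form of eEF1A, was at or near 0, with 1, 0 and 1 counts in the controls, 1, 1 and 0 at 2 days and 0, 0 and 0 at 7 days.

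Each of the 4 genes of the eEF1B complex and its partners was lower at 7 days, where 41.8% of all genes were lower. Eef1e1 lies on chromosome 13, 38644207 to 38659058, minus strand. Eef1e1, a small protein of the multi-synthetase complex with a fold like that of eEF1B subunits, had the largest fall of all factors. It stood at 107, 100.2 and 119.8 CPM in control samples, 95.3, 84.2 and 108 after 2 days and 19.4, 19.98 and 24.9 after 7 days, a 5.07-fold difference with every 7-day sample under 0.5 of every other sample (log2 fold change -2.34 ± 0.12, edgeR adjusted p = 5.5e-11). At 2 days it overlapped the controls (log2 fold change -0.18 ± 0.11, edgeR adjusted p = 0.25). Eef1b2, the exchange subunit, stood at 835, 807 and 799 CPM with doxycycline, 812, 660.2 and 784 after 2 days without it and 611, 654 and 557 after 7 days. It fell less, without overlap (log2 fold change -0.42 ± 0.09, edgeR adjusted p = 0.00072). Eef1d and Eef1g, the delta and gamma subunits, had log2 fold changes of -0.96 ± 0.10 and -1.03 ± 0.12 at 7 days (edgeR adjusted p = 2.5e-07 and 8.2e-07), with 44.2% of the 50-base words of Eef1g shared with other genes.

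Eef2k lies on chromosome 7, 120842831 to 120907450, plus strand. Eef2k, the kinase that inactivates eEF2, was the one elongation gene that was higher at 7 days. It stood at 43.2, 44.8 and 36.3 CPM in control samples, 49.6, 52.1 and 43.5 after 2 days and 68.8, 57.9 and 52.8 after 7 days. All 7-day samples were above the other samples (log2 fold change 0.53 ± 0.11, edgeR adjusted p = 0.00039, not called with library size alone). Per kilobase of exon, the level of Eef2k was 0.00346 ± 0.000197 times that of Eef2 in controls (SD, n = 3), 0.00491 ± 0.000101 times at 2 days and 0.00485 ± 0.000133 times at 7 days, so that both later groups lay above the controls. Unlike Eef2k, the mRNAs of the methyltransferases that modify eEF1A and eEF2 were lower at 7 days. Eef1akmt4 lies on chromosome 16, 20611593 to 20619011, plus strand. Eef1akmt4, which methylates a lysine of eEF1A, stood at 10.04, 9.84 and 8.17 CPM with doxycycline, 8.67, 8.79 and 8.81 after 2 days without it and 2.42, 2.59 and 2.199 after 7 days. Its 7-day samples were far below the rest, which overlapped (log2 fold change -1.96 ± 0.13, edgeR adjusted p = 1.3e-09), and its exons overlap Gm49333 and Alg3, so it is uncertain whether all of its reads are its own. Eef1akmt1, Eef1akmt2 and Eef2kmt had log2 fold changes of -0.67 ± 0.10, -0.70 ± 0.15 and -0.94 ± 0.09, all called. Eef1akmt3 was barely expressed, at 0.431 ± 0.1503 CPM in controls (SD, n = 3), and its call (log2 fold change -1.18 ± 0.52, edgeR adjusted p = 0.047) was lost with DESeq2 or its size factors, and without either of control replicates 1 and 3, any 2-day sample or 7-day replicate 1 or 3 (log2 fold change -2.02 to -0.67, edgeR adjusted p up to 0.21).

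Levels per kilobase of exon spread widely among the factors. In controls Eef1a1 was highest at 5072 ± 123 CPM per kilobase (SD, n = 3), followed by Eef2 at 1624 ± 231, Eif5a at 915 ± 61.1 and Eef1g at 736 ± 84.1. The same 4 genes led at 7 days in the same order, at 4437 ± 87.7, 1668 ± 270.4, 515 ± 54.1 and 361 ± 53.7 CPM per kilobase. The order below them changed: Eif4a1 went from place 5 to 8, at 427 ± 13.05 and 194 ± 5.87, while Eif3h went from place 7 to 5, at 304 ± 15.8 and 353 ± 22.2. At 7 days Eef1g and Eif3h did not differ beyond their spread.

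Several of the calls between 2 and 7 days did not hold under every alternative. Eef2 was called higher at 7 days against 2 days (log2 fold change 0.33 ± 0.14, edgeR adjusted p = 0.04), although the groups overlapped. It was not called in a fit of only those 2 groups, or without control replicate 2, 2-day replicate 1 or 3 or 7-day replicate 1 or 2 (log2 fold change down to 0.20, edgeR adjusted p up to 0.18). Eif2s2 was called lower (log2 fold change -0.33 ± 0.13, edgeR adjusted p = 0.033), but not with DESeq2 size factors or without 2-day replicate 3 or 7-day replicate 1 or 2 (log2 fold change up to -0.18, edgeR adjusted p up to 0.21). The rise of Eef2k in this comparison (log2 fold change 0.30 ± 0.11, edgeR adjusted p = 0.019) was lost without 2-day replicate 3 or 7-day replicate 1 (edgeR adjusted p up to 0.1). The low Eif4e3 was called too (log2 fold change -0.87 ± 0.36, edgeR adjusted p = 0.046), and among the alternatives that lost the call were DESeq2, no filter, and leaving out 2-day replicate 2 or 3 or 7-day replicate 2 or 3 (edgeR adjusted p up to 0.18).

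Other lists of the translation machinery also held more lower than higher genes at 7 days, where 41.8% of all genes were lower and 40.5% higher, with a median of -0.03. Of 79 cytoplasmic ribosomal protein genes, 47 were lower (59.5%) and 3 higher (3.8%), with a median log2 fold change of -0.29, and at 2 days none was called by edgeR (2 were lower and 0 higher at an unadjusted p under 0.05). Among 19 tested cytoplasmic tRNA synthetase genes, which charge tRNAs for eEF1A, 14 were lower (73.7%) and 1 higher (median -0.64), with Iars at -1.67 ± 0.09. The 9 termination and recycling genes had 8 lower (88.9%) and 1 higher (median -0.92), with the release factor GTPase Gspt1 at -1.15 ± 0.08. Of 5 genes for poly(A)-binding proteins and their partners 4 were lower (80%, median -0.51), with Pabpc4 at -1.92 ± 0.09. Each of the 9 enzymes that make the hypusine of eIF5A and the diphthamide of eEF2 was lower (median -0.82), with Dph2 at -1.53 ± 0.09, and so were 9 of 11 mitochondrial translation factors (81.8%, median -0.65).

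In the lists of pathways that act on these factors more genes were higher than lower, beside 40.5% higher and 41.8% lower of all genes. Of 22 genes of mTORC1 and its translation effectors, 12 were higher (54.5%) and 4 lower (18.2%) at 7 days, with a median of 0.32 that was -0.08 with library size alone. The smallest p-values were those of Ddit4 and Sesn1, which restrain mTORC1, and of Pdcd4, which inhibits eIF4A. Ddit4 went from 18.9 ± 1.997 CPM in controls to 120.3 ± 6.59 CPM at 7 days (log2 fold change 2.67 ± 0.09, edgeR adjusted p = 6.9e-13), and Sesn1 and Pdcd4 had log2 fold changes of 1.81 ± 0.10 and 2.79 ± 0.15. Of 13 genes of the integrated stress response, the programme that follows phosphorylation of eIF2 alpha, 8 were higher (61.5%) and 4 lower (30.8%, median 0.43, 0.03 with library size alone). Ddit3, a transcription factor of this response, went from 2.38 ± 0.143 CPM to 19.02 ± 1.44 CPM (log2 fold change 2.99 ± 0.12, edgeR adjusted p = 4.2e-12), and Nupr1 and Atf3 had log2 fold changes of 2.62 ± 0.11 and 1.78 ± 0.11. These lists were read from the same fit and samples as the translation factors.

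**Figure D4:**
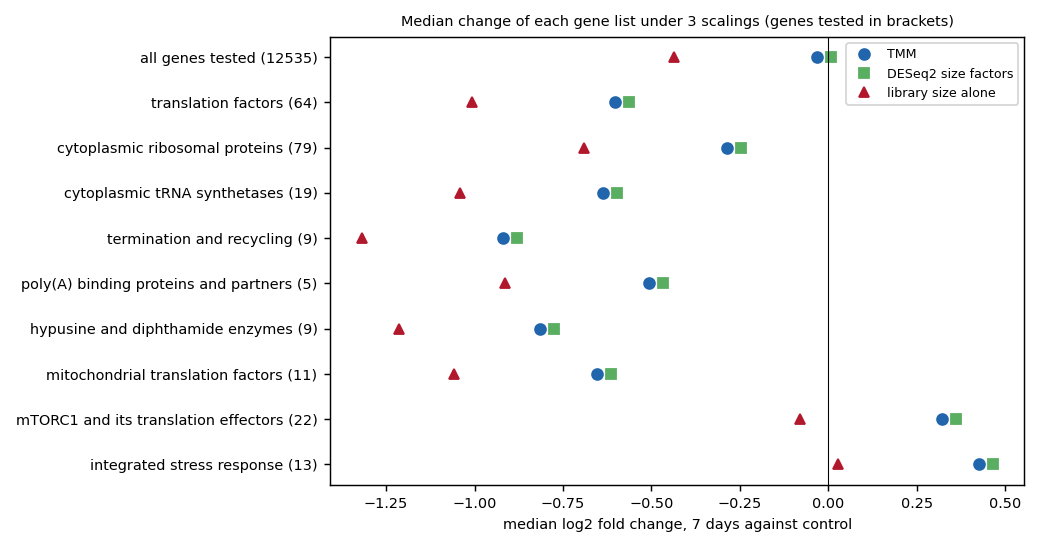
Median log2 fold change of each gene list at 7 days against control under TMM (circles), DESeq2 size factors (squares) and library size alone (triangles), beside the median of all genes tested. With TMM the translation factors lie at -0.60, and the mTORC1 and integrated stress response lists lie above 0 with TMM and at -0.08 and 0.03 with library size alone.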

How the data were processed

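Raw read counts per gene were deposited by the authors for 9 poly(A) RNA libraries made with a NEBNext Ultra II kit, per the labels' protocols. Per the submitters' processing notes the tools were STAR 2.7.0e, featureCounts and DESeq2, with builds mm10 and GRCm38. Which annotation release and strand setting they used is not given in the sources used here. GENCODE M21 held 21236 of the 21253 gene identifiers, and symbols and coordinates come from it. No strand was used in finding shared exons, and 29 of the 67 genes have exons that overlap another annotated gene.

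The edgeR function filterByExpr kept 12535 genes. Counts were scaled by TMM and tested in edgeR 4.0.16 (R 4.3.3) with glmQLFit and glmQLFTest over all 9 samples by group. The p-values were two-sided and adjusted over all genes tested by the Benjamini-Hochberg method, and genes were called under 0.05. The SE is the absolute log2 fold change over the square root of F. Lists are described by counts and medians. The genes, lists and tests were chosen with earlier results of these data known. Every factor may be named, with the value in every sample for a fixed set and for the 5 largest rises and falls in each comparison. Of other lists up to 3 genes with the smallest p were named.

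Shared sequence was counted as 50-base words of a gene's transcripts found in transcripts of other genes. Replicate libraries differed by more than sampling noise in each pair. Tried in turn were library size alone or DESeq2 size factors for scaling, a filter at a mean of 5 CPM or none, limma-voom (limma 3.58.1), the DESeq2 1.42.0 Wald test, a replicate block, a fit of only the compared groups, and each sample left out. In simulated data with 200 changed genes, recovery of the 67 changed by 1.5-fold was 98.5% (2 days), 97% (7 days) and 92.5% (7 against 2 days). False calls made up 4.33%, 4.81% and 4.88% of all calls, on 12122, 12121 and 12133 genes. Far more genes were called in the real data at 7 days against control (5080 higher and 5237 lower). The simulated rates therefore do not cover errors from scaling in the 7-day comparisons. No change under 1.5-fold was simulated, and every factor called at 2 days against control changed by less (up to 1.41-fold, Eif2b4). Recovery of changes of that size was not tested.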

Additional observations from a re-analysis of the deposited data

How the results depend on the processing

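Of the 48 factors lower and the 6 higher at 7 days against control, 43 and 3 were called under every alternative. Of the 45 lower and 8 higher at 7 days against 2 days, 43 and 2 were. Of the 7 lower and 1 higher at 2 days, 3 and 0 were. With library size alone, 3 factors were higher at 7 days against control and 2 at 7 days against 2 days. The 7-day fold changes that turned under that scaling were, against control, those of Eif3k (-0.36), Eef2 (-0.37), Eif3f (-0.20) and Eif3h (-0.18), and, against 2 days, those of Eif2ak3 (-0.032), Eif3k (-0.30), Eif3f (-0.038), Eef2k (-0.12), Eef2 (-0.10), Eif4ebp1 (-0.29) and Eif3h (-0.13). That scaling itself lowers all 7-day values together. With the replicate number as a block, 20 factors were lower and 2 higher at 2 days (31.2% and 3.12%, against 15.7% and 16.6% of all genes in that fit). At 7 days against control the block added Eef1a1, Eif2s2 and Eif6 as lower and Eif3f as higher and lost Eef1akmt3, and against 2 days it added Eif2b2 and Eif6 as lower and lost Eif4e3. At 2 days against control, leaving out 1 sample gave 3 to 11 lower and 0 to 1 higher. The lower ones were 4.69 to 17.2% of the factors, where 6.4 to 12% of all genes were lower. The cause was not tested. The labels give the numbers as technical replicates. Same-numbered samples had correlated deviations (r over 0.1 across genes) in 5 of 9 pairs, with r from -0.13 to 0.48. Samples with different numbers had r from -0.437 to 0.169. Of the 9 samples, 6 correlated best with a sample of their own number. The main fit left the numbers out, and the counts of calls at 2 days depend on that choice. Whether the numbers mark a shared effect was not tested. Depth limits Eif4e1b, Eef1a2, Eif4ebp3, Eif4e3 and Eef1akmt3.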
